A study of Rattus norvegicus with 10 samples.

Results

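The junctions between neighbouring Sertoli cells were followed through 10 of their genes: Ocln, Tjp1, Cldn3, Gja1, Cdh2, Jup, Afdn, Espn, Itgb1 and Ezr. Members were the probe sets whose annotation carried 1 of these symbols and no other. There were 16 among the 8740 probe sets of the array, and none was shared with another symbol. Cultured Sertoli cells from 20-day-old rats received follicle-stimulating hormone (FSH) for 2, 4, 8 or 24 h. The control was the culture at 0 h, before FSH, though 1 of its 2 labels says control and gives no time. Each of the 5 times had 2 arrays, numbered replicate 1 and replicate 2, and all 10 arrays were of total RNA. Untreated cultures later than 0 h were not analysed here, so FSH and time in culture cannot be told apart. The labels do not say whether replicates were separate cultures, so a p-value here measures the spread between arrays, which may be technical.

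Sertoli cells close off the inner part of the seminiferous tubule with the blood-testis barrier, a belt of junctions between adjacent cells near the basement membrane. Tight junctions, gap junctions, desmosome-like contacts and the actin-rich ectoplasmic specialization lie side by side in this belt. It opens and closes again as developing germ cells pass through. FSH acts on Sertoli cells through its receptor and cyclic AMP, and the activating factor CREB binds cAMP response elements in many target promoters.

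Of the 10 genes, only Ezr and Ocln passed the test against control, which does not show that the others were unchanged. Ezr encodes ezrin, which ties membrane proteins to actin, and its transcript was 6.50-fold above control at 4 h, 5.99-fold above at 8 h and 1.40-fold above at 24 h, where it did not pass the test. Ocln encodes occludin, a membrane protein of tight junctions, and its transcript passed at 4 h on 1 of 3 probe sets, 4.09-fold above control. Averaged over its probe sets, Ocln did not pass at 4 h. When 1 array was left out, Ocln never passed at 4 h and Ezr passed in only some of the fits. At 8 and 24 h Ocln did not pass the test against control. Genes for the tight junction scaffold, for cadherin-based contacts and for the integrin beta 1 chain did not pass the test at any time. Nor did Gja1, at 3.58-fold above control at 4 h and 3.72-fold at 8 h.

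Intensities below were scaled so that all arrays shared a 75th percentile, and log2 values had a floor at an intensity of 13.4. Of the 16 probe sets, 14 reached the mean intensity of 31.9 set for testing, and they covered all 10 genes. A probe set of Cldn3 with a mean of 6.99 and one of Afdn with 31.1 did not, while the dimmest that did were a Cldn3 probe set at 34.2 and an Afdn probe set at 34.3. limma tested 4439 probe sets together, and calls are at an adjusted p under 0.05. Replicate numbers were taken to pair the arrays, so a fit with the number as a block is given where it changes a call. At 4 h 2 of the 14 junction probe sets were called higher, where 0.856% of all probe sets were. At 8 h the count was 1 of 14, against 0.743% of all. At 2 h none was called by limma (2 higher at an unadjusted p under 0.05), against 0.676% of all called in either direction. At 24 h none was called (1 lower at an unadjusted p under 0.05), and neither was any of the 4439 probe sets (0%, with 127 higher and 77 lower at an unadjusted p under 0.05). The F test for a change at any time called 3 of 14, namely Ezr and 2 of the Ocln probe sets, against 0.991% of all.

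With the replicate block, 1 of 14 was called higher at 2 h (1.15% of all), 3 at 4 h (2.64% of all) and 1 at 8 h (2.3% of all). The block called none at 24 h (2 lower at an unadjusted p under 0.05), against 0.0901% of all. Its F test called the same number as before, 3 of 14, against 3.22% of all. The 14 log2 changes had a median of 0.59 at 4 h, when that of all probe sets was -0.03, and of -0.32 at 8 h against -0.02. They count probe sets, with Ocln 3 times and Cdh2 and Afdn 2 times each, and are not medians of the 10 genes. At 8 h every Ocln and Afdn probe set had a negative change and both of Cdh2 a positive one. The medians describe a list chosen with earlier results known.

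The 300 bases around the annotated starts of Ocln, Ezr and Gja1 are shown because the first 2 genes were called and Gja1 had the highest changes at 4 and 8 h among the genes not called. They are RefSeq sequences of build GRCr8, 5′ to 3′ along the gene, from 250 bases before to 50 after the start. RefSeq promoters were matched for 8 of the 10 genes. Capitals mark every match, on either strand, to the cAMP response element TGACGTCA, its shorter core TGACG, the core AAGGTCA of the element bound by Nr4a receptors, the E-box CACGTG or the GC box GGGCGG. The core TGACG lies inside TGACGTCA.
Ocln, chr2:33441149-33441448, minus strand: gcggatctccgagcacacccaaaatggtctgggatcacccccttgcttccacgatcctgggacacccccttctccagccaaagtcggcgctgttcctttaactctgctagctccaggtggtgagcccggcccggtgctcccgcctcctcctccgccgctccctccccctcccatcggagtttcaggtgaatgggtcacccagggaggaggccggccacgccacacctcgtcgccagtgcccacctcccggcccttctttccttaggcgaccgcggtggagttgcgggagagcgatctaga
Ezr, chr1:49416524-49416823, minus strand: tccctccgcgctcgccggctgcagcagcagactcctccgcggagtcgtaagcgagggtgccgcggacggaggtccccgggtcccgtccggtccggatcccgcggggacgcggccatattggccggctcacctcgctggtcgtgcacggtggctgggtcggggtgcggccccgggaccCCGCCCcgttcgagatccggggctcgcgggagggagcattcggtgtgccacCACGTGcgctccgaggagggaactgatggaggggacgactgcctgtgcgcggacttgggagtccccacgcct
Gja1, chr20:36302314-36302613, plus strand: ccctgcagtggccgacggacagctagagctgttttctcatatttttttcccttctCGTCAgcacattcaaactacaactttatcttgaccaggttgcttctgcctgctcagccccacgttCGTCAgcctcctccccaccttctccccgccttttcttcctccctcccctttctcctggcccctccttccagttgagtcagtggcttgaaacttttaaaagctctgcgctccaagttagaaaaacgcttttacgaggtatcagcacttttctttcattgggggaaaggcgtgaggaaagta

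The Ocln window held none of the 5 motifs. In the Ezr window an E-box lay 22 bases before the start and a GC box, on the other strand, 73 bases before it. E-boxes were found in 6.42% and GC boxes in 33.1% of 33469 rat promoter windows of the same length. Gja1 had the core TGACG at 195 and 130 bases before its start, both on the other strand. That core was present in 21.2% of all windows and in 4 of the 8 junction genes, namely Tjp1, Gja1, Espn and Itgb1. The whole element TGACGTCA and the Nr4a core AAGGTCA were in none of the 8, against 1.83% and 4.61% of all windows. A match of letters is not evidence of binding, and a missing match says only that these letters are not in this window.

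**Figure D1:**
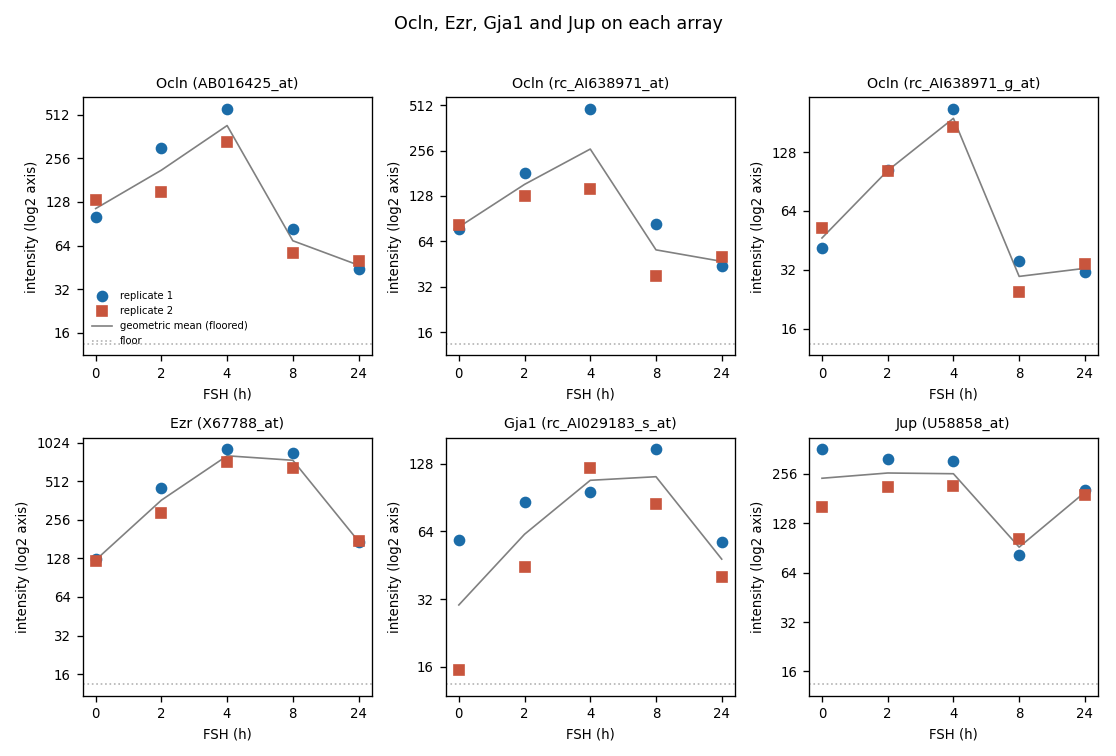
Scaled intensity (log2 axis) of the Ocln, Ezr, Gja1 and Jup probe sets on each array against time in FSH (h, evenly spaced). Circles are replicate 1, squares replicate 2, the grey line joins geometric means and the dotted line is the floor of 13.4. All 3 Ocln probe sets were highest at 4 h, Ezr was high at 4 and 8 h, and Jup was lowest at 8 h.

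Ezrin links proteins of the cell membrane to actin filaments. Its probe set had intensities of 128 and 121 at 0 h, 457 and 290.1 at 2 h, 904 and 720.4 at 4 h, 852 and 651 at 8 h, and 172 and 176 at 24 h on replicates 1 and 2. Both arrays of every later time lay above both controls, and the 4 and 8 h arrays lay far above the rest. The group means were 124 ± 4.63 (SD, n = 2) at 0 h and 812 ± 130.0 at 4 h. The log2 change at 4 h was 2.70 ± 0.34 (SE, adjusted p = 0.00812 by limma), with 2.83 within replicate 1 and 2.57 within replicate 2. It was 2.58 ± 0.34 at 8 h (adjusted p = 0.0102). The 2 h change of 1.55 ± 0.34 was called in the block fit alone (adjusted p = 0.0210, against 0.148 in the fit without it). At 24 h it was 0.48 ± 0.34 (adjusted p = 0.996).

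Between successive times, the difference of Ezr from 2 to 4 h was 1.15 log2 units (limma adjusted p = 0.855) and from 4 to 8 h -0.12 (adjusted p = 1), so neither step was called. From 8 to 24 h the log2 difference was -2.10 ± 0.34 and was not called (adjusted p = 0.0555). That step passed with the replicate block (adjusted p = 0.00911), with values as deposited (0.0487), with quantile normalization (0.0309), with a higher floor (0.0398) and with probe sets averaged by gene (0.0490). Without control replicate 1 the 4 and 8 h calls of Ezr were lost (adjusted p = 0.0619 and 0.0627), and likewise without control replicate 2 (0.0561 and 0.0527). Leaving out 4 h replicate 1 or 2 ended the 4 h call (0.117 and 0.0545), and leaving out 8 h replicate 1 or 2 ended the 8 h call (0.143 and 0.0560). The log2 change stayed between 2.54 and 2.86 at 4 h and between 2.39 and 2.78 at 8 h in these fits.

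Occludin spans the membrane at the tight junction and is a standard marker of the barrier. It was measured by 3 probe sets, of which rc_AI638971_at and rc_AI638971_g_at come from 1 sequence entry and are not independent. On rc_AI638971_g_at the intensities were 41.4 and 52.3 at 0 h, 103 and 102 at 2 h, 212 and 171 at 4 h, 35.6 and 24.7 at 8 h, and 31.1 and 34.2 at 24 h. The 2 and 4 h arrays lay above both controls, and the 8 and 24 h arrays lay below both. The log2 change at 4 h was 2.03 ± 0.34 (SE, adjusted p = 0.0352 by limma, 0.0109 with the replicate block), or 2.35 within replicate 1 and 1.71 within replicate 2.

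AB016425_at, from another sequence entry, had 101 and 131 at 0 h, 301 and 149.9 at 2 h, 560.0 and 333 at 4 h, 83.9 and 56.8 at 8 h, and 44.1 and 49.7 at 24 h. Its groups were ordered as those of the first probe set, except that 24 h rather than 8 h was lowest. The log2 change at 4 h was 1.90 ± 0.43 (adjusted p = 0.0986 by limma), and it passed with the replicate block (adjusted p = 0.0248). The third probe set, rc_AI638971_at, had 77.4 and 82.1 at 0 h, 181 and 129 at 2 h, 481 and 143 at 4 h, 83.9 and 37.7 at 8 h, and 44.0 and 50.6 at 24 h. Its 4 h replicates stood far apart, and its log2 change of 1.72 ± 0.58 was not called by limma in either fit (adjusted p = 0.355, and 0.0946 with the replicate block). Across the 10 arrays the 3 probe sets correlated at Pearson r = 0.923 to 0.953.

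From 4 to 8 h the Ocln log2 differences were -2.68 ± 0.34, -2.64 ± 0.43 and -2.22 ± 0.58 in the order above. None passed in the limma fit without the block (adjusted p = 0.0965, 0.356 and 0.898), where no probe set of any gene did (0%, with 76 higher and 76 lower at an unadjusted p under 0.05). Of the 14, 1 (Tjp1) was higher and 4 (the 3 of Ocln and that of Jup) were lower at an unadjusted p under 0.05. In the block fit the first 2 fell (adjusted p = 0.0298 and 0.0432), 2 of the 14 junction probe sets, against 0.0901% of all probe sets called lower. The first also passed when dim probe sets were kept in the test (adjusted p = 0.0389). At 24 h Ocln had log2 changes of -0.52, -1.30 and -0.76 against control, none of them called (adjusted p = 0.996 each by limma).

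The single Ocln call at 4 h was lost in all 10 fits that left out 1 array, with adjusted p from 0.0607 to 0.369 and log2 changes from 1.86 to 2.20. The adjusted p was 0.117 without control replicate 1 and 0.369 without 4 h replicate 1. When probe sets of the same gene were averaged first, an alternative chosen after the data were seen, Ocln had a log2 change of 1.88 ± 0.41 at 4 h (adjusted p = 0.105 over 3459 genes and unnamed probe sets).

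**Figure D2:**
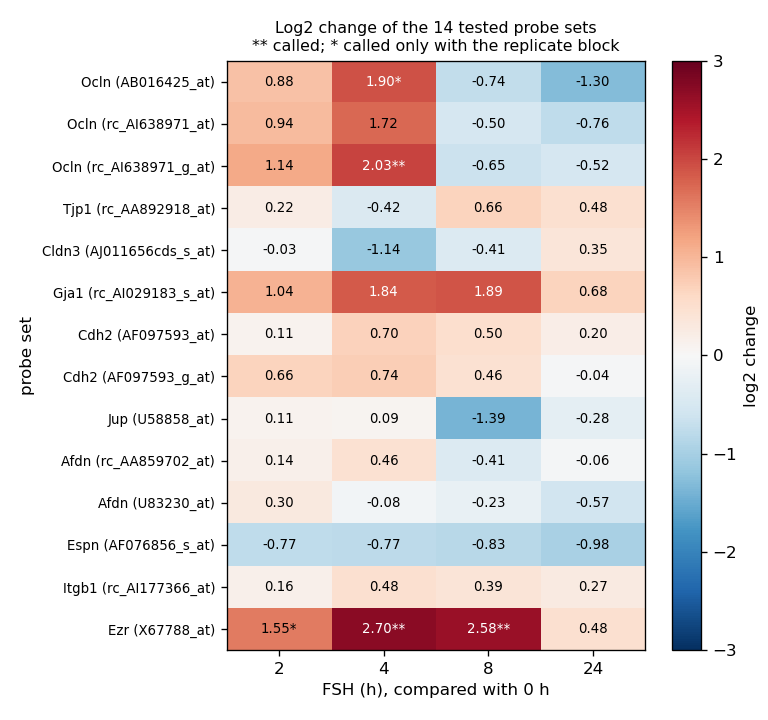
Log2 change against 0 h (colour and number) of the 14 tested probe sets, in rows, after 2, 4, 8 and 24 h of FSH, in columns. Double asterisks mark calls and single ones calls made only with the replicate block. At 4 h Ezr had 2.70, the 3 Ocln probe sets 1.72 to 2.03 and Gja1 1.84, and at 8 h Ezr (2.58) and Gja1 (1.89) stood above the rest.

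The remaining tight junction genes had values that were not called. Tjp1 encodes ZO-1, the scaffold that joins occludin and claudins to actin. Its intensities were 266 and 268 at 0 h, 402 and 240.3 at 2 h, 274 and 145 at 4 h, 568 and 315 at 8 h, and 366 and 382 at 24 h. The 8 and 24 h arrays lay above both controls, while at 4 h 1 array was far below them. The log2 changes were 0.22, -0.42, 0.66 and 0.48 at 2, 4, 8 and 24 h, with 95% intervals from -1.42 to 0.57 at 4 h and from -0.33 to 1.66 at 8 h. The Tjp1 difference from 4 to 8 h was 1.08 ± 0.44, opposite in sign to that of Ocln, and was not called (limma adjusted p = 1, and 0.465 with the replicate block).

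Cldn3 encodes claudin-3, a sealing protein of the tight junction strand. Its tested probe set was dim, with 54.2 and 23.2 at 0 h, 55.9 and 21.6 at 2 h, 17.5 and 14.8 at 4 h, 9.89 and 53.5 at 8 h, and 49.8 and 41.3 at 24 h. Both 4 h arrays lay below both controls and 1 of the 8 h arrays was under the floor. Its log2 change at 4 h was -1.14 ± 0.76 (limma adjusted p = 0.940). The other Cldn3 probe set was under the floor on 9 of 10 arrays and gives no course.

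Gja1 encodes connexin 43, the gap junction protein through which Sertoli cells exchange small molecules. Its probe set had 58.5 and 15.5 at 0 h, 86.9 and 44.5 at 2 h, 95.4 and 122 at 4 h, 148 and 84.8 at 8 h, and 57.6 and 40.3 at 24 h. The 4 and 8 h arrays lay above both controls, which themselves differed widely. Log2 changes were 1.84 ± 0.63 at 4 h (limma adjusted p = 0.356) and 1.89 ± 0.63 at 8 h (adjusted p = 0.337). Neither passed with the replicate block (0.0815 and 0.0730). Within replicate 1 the 4 h change was 0.70 and within replicate 2 it was 2.98, and its control arrays differed by more than its 4 h arrays. The 95% interval at 8 h ran from 0.48 to 3.30 before adjustment.

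Jup encodes plakoglobin, a catenin found at both desmosomes and cadherin contacts. Its intensities were 361 and 161 at 0 h, 317 and 212 at 2 h, 305 and 216 at 4 h, 82.0 and 102 at 8 h, and 205 and 191 at 24 h. The 8 h arrays were the lowest of the 10. The log2 change at 8 h was -1.39 ± 0.44, which was not called (limma adjusted p = 0.297, and 0.0769 with the block). The Jup differences into and out of 8 h, -1.49 from 4 h and 1.11 to 24 h, were not called either (adjusted p = 1 and 0.659, with the block 0.282 and 0.223).

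Cdh2 encodes N-cadherin, the calcium-dependent adhesion protein of the ectoplasmic specialization and of contacts with germ cells. The brighter of its 2 probe sets, AF097593_g_at, had 60.5 and 51.2 at 0 h, 144 and 53.6 at 2 h, 166 and 51.9 at 4 h, 124 and 47.2 at 8 h, and 70.5 and 41.5 at 24 h. The replicate 1 arrays were high from 2 to 8 h and the replicate 2 arrays lay between 41.5 and 53.6, so the groups overlapped at every time. At 4 h the log2 change was 1.46 within replicate 1 and 0.02 within replicate 2, and 0.74 ± 0.70 over both (limma adjusted p = 0.999). The other probe set, from the same sequence entry, ran from 19.6 to 92.0 and had its lowest value at 2 h on replicate 2.

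Afdn encodes afadin, which connects nectin adhesion proteins to actin. Its 2 tested probe sets ran from 22.5 to 56.0 and from 18.3 to 58.4, and the untested one from 14.2 to 49.3. The log2 changes at 4 h were 0.46 and -0.08 and at 24 h -0.06 and -0.57, so the probe sets differed in sign at 4 h and neither was called (limma adjusted p = 0.999 for both at 4 h).

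Espn encodes espin, which bundles the actin filaments of the ectoplasmic specialization. It had 490.0 and 204 at 0 h, 190.0 and 181 at 2 h, 203 and 168 at 4 h, 244 and 130.3 at 8 h, and 186 and 139 at 24 h. Control replicate 1 stood far above the other 9 arrays, which ran from 130.3 to 244. The log2 changes were -0.77, -0.77, -0.83 and -0.98 at 2, 4, 8 and 24 h, none called (smallest adjusted p = 0.688 by limma). Within replicate 2 alone the changes were -0.17, -0.28, -0.65 and -0.55.

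Itgb1 encodes the integrin beta 1 chain, which anchors cells to matrix and takes part in the contact with elongating spermatids. Its intensities ran from 515 to 1048 over the 10 arrays, and both ends were on replicate 1, at 0 h and at 8 h. The log2 changes were 0.16, 0.48, 0.39 and 0.27 at 2, 4, 8 and 24 h (smallest limma adjusted p = 0.879). The 95% interval at 4 h ran from -0.42 to 1.37.

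**Figure D3:**
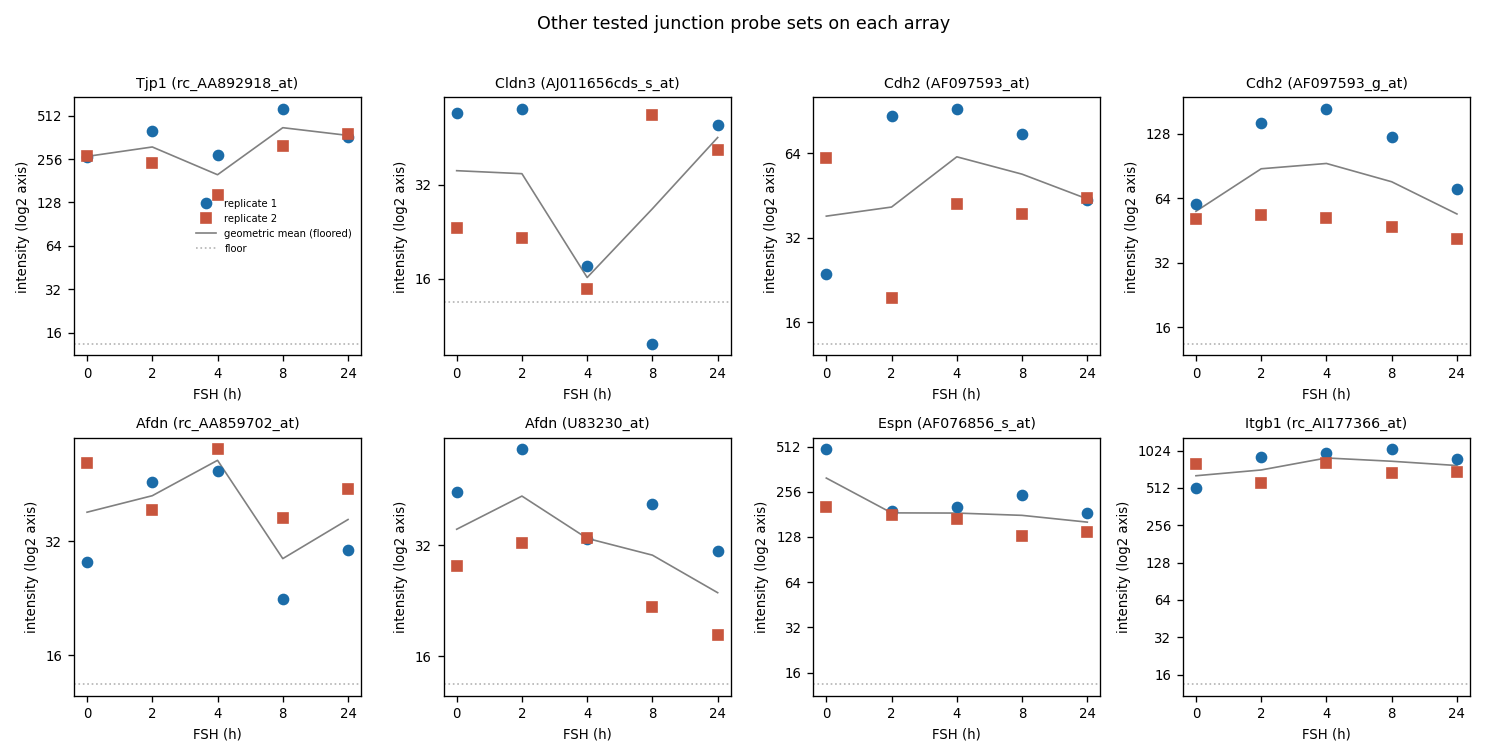
Scaled intensity (log2 axis) of the 8 remaining tested probe sets on each array against time in FSH (h, evenly spaced). Circles are replicate 1, squares replicate 2, the grey line joins geometric means of floored values and the dotted line is the floor of 13.4. Cdh2 separates the replicate numbers from 2 to 8 h, and Espn is highest on control replicate 1 (490.0).

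For the other steps between successive times, none of the 14 was called from 2 to 4 h by limma. At an unadjusted p under 0.05, 3 were higher, namely 2 Ocln probe sets and Ezr. No probe set of any gene was called in that step (0%, with 102 higher and 58 lower at an unadjusted p under 0.05). From 8 to 24 h none of the 14 was called (1 higher and 1 lower at an unadjusted p under 0.05), against 0.225% of all in either direction. In the block fit 1 of the 14, Ezr, was called lower from 8 to 24 h, against 0.924% of all.

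The replicate numbers themselves differed. In the block fit 13 of the 14 junction probe sets had a negative log2 difference of replicate 2 minus replicate 1. Their median was -0.45, that of all 4439 was -0.05, and 45.7% of all were positive. Of the 14, 1 was called, AF097593_g_at of Cdh2, lower in replicate 2 by 1.10 ± 0.24 (SE, limma adjusted p = 0.0161), against 8.65% of all probe sets called lower. The Ezr difference was -0.28 and those of Ocln ran from -0.62 to -0.08.

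**Figure D4:**
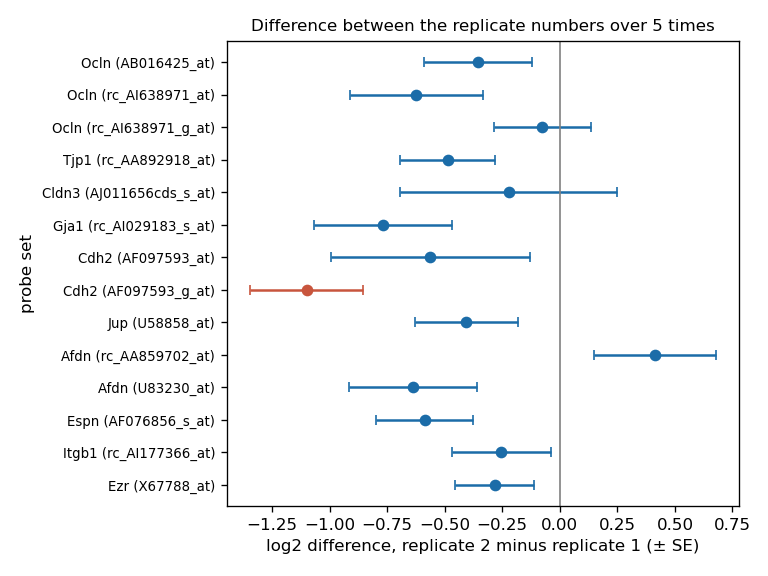
Log2 difference of replicate 2 minus replicate 1 (points, with SE bars) over the 5 times for each tested probe set. All but the Afdn probe set at 0.41 lie below 0, and the red point marks the called Cdh2 probe set.

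Within a time the replicates correlated at r = 0.867 to 0.905 over all probe sets. The Sertoli marker Clu (clusterin) had intensities from 6779 to 13782 on every array. Beside the junction differences, the summed intensity of 16 germ cell marker probe sets, 3 of them under the floor on every array, was 435 to 1196 on replicate 1 and 2801 to 3268 on replicate 2. Of the 9 tested, 6 were called higher in replicate 2 by the block fit, against 6.53% of all probe sets. The Sertoli marker sum was 14514 to 19653 on replicate 1 and 10976 to 14589 on replicate 2. Most of it was Clu, at 0 h 13782 of 18012 on replicate 1 and 7695 of 10976 on replicate 2. Its highest value, at 8 h, held 1793 and 2939 from Inha, which had 363 and 286 on control replicate 1. In the block fit 6 of the 12 tested Sertoli probe sets were called lower in replicate 2, against 8.65% of all. Vim went the other way at 0 h, with 1329 on replicate 1 and 1617 on replicate 2. The 3′/5′ ratio of the beta-actin control was 0.928 to 1.17 against 1.48 to 1.76. Their part in the differences between junction probe sets was not tested. In RNA of whole cultures, fewer cells of a type and less RNA per cell cannot be told apart. Within each replicate number Ezr and all 3 Ocln probe sets were higher at 4 h than at 0 h.

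The summed germ cell markers on replicate 1 were highest at 0 h (1196) and lowest at 24 h (435). Of the tested probe sets, none of 9 germ cell, 8 myoid, 1 endothelial and 2 macrophage markers was called against 0 h. On the Sertoli list 1 of the 12 tested was, a call on 1 probe set rather than on the list. The largest rise there was that of Inha, from 286 and 141 at 0 h to 2939 and 1454 at 8 h on M36453_at. Over all probe sets 0.676%, 0.856%, 0.766% and 0% were called at 2, 4, 8 and 24 h. At such shares, no call on lists this small says little about these cell types. The myoid sum was 1302 to 2299 on 9 arrays and 5240 on 24 h replicate 1. On the Leydig list 3 probe sets were tested, 2 of the steroid transporter Star and 1 of Lhcgr, and 2 were called against 0 h. Star had 2.70 and 22.3 at 0 h and 732 and 773 at 4 h on AB001349_at. Lhcgr had 33.2 and 70.6 at 0 h and 65.6 and 48.9 at 4 h, so the calls describe Star rather than Leydig markers as a set. The list sum was 107 to 1395 on replicate 1 and 233 to 1674 on replicate 2. Endothelial sums were 140.1 to 192 and 83.1 to 152, and macrophage sums 173 to 225 and 133 to 246.

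Further junction genes, listed with earlier results of these data known, gave no call. Of 123 symbols listed, 48 genes had a probe set with a single symbol and 28 were tested with 35 probe sets. In none of the 7 comparisons, and in neither fit, was a probe set of the list called (unadjusted p under 0.05 in 0 or 1 of 35 in each comparison). Over all probe sets 0.676%, 0.856%, 0.766% and 0% were called at 2, 4, 8 and 24 h without the block, so no call among 35 is near the share of all. At 4 h 5.77% of all were higher and 1.98% lower at an unadjusted p under 0.05, against 1 and 0 of the 35. By list, 2 tight junction, 5 gap junction, 3 adherens and desmosome, 8 integrin and focal adhesion and 17 actin linker probe sets were tested. Their median change at 4 h was -0.06, against -0.03 over all.

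The strongest value among them was that of Pvr, a nectin-like adhesion receptor. Its intensities were 39.7 and 14.3 at 0 h, 134 and 66.4 at 2 h, 129 and 103 at 4 h, 36.1 and 70.1 at 8 h, and 36.0 and 34.1 at 24 h. The 2 and 4 h arrays lay above both controls. The log2 change at 4 h was 2.28 ± 0.57 (limma adjusted p = 0.147), and it was not called with the replicate block either (adjusted p = 0.0514). Plec, the cytoskeletal linker plectin, had 1.10 at 8 h (limma adjusted p = 0.634) and a difference of 1.66 from 4 to 8 h (adjusted p = 1, and 0.465 with the replicate block), neither of them called. Csk, a kinase that restrains Src, had -1.19 at 4 h (limma adjusted p = 0.644), and Gja4, connexin 37, 1.01 from 2 to 4 h (0.588 with the replicate block). Also named by their F test were Patj (-0.62 at 2 h) and Rab13 (-0.48 at 24 h) of the tight junction, Gja5 (-0.68 at 8 h) and Gjb5 (1.24 at 4 h, under the floor on 1 control array) of the gap junction, Nectin1 (-0.54 at 2 h) and Cdh17 (-0.73 at 24 h) of the adherens list, Tln1 (0.90 at 24 h) and Ptk2 (-0.35 at 8 h) of the focal adhesion list, and Limk1 (-0.46 at 8 h) and Cdc42 (-0.49 at 4 h) of the actin linkers, in log2 units and none called.

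Probe sets whose log2 values over the 10 arrays ran most like those of the leading members were found by Pearson correlation, as a description. The arrays share the time course, so any gene with the same course ranks high. For Ezr they were Bex3 (r = 0.981), Plat (0.981), Gls2 (0.979), Crem (0.973) and LOC102547700 (0.966). For Ocln rc_AI638971_g_at they were Cwc25 (r = 0.948), Cyp51 (0.901), Tpst2 (0.874), Pim1 (0.868) and Homer1 (0.863). Among the junction probe sets of different genes, the highest r were 0.903 for AF097593_at of Cdh2 with Itgb1 and 0.827 for Gja1 with Ezr. The brighter Cdh2 probe set, AF097593_g_at, correlated with Itgb1 at 0.682. AF097593_at and Itgb1 were both lowest on control replicate 1 and 2 h replicate 2. The F test called neither Cdh2 nor Itgb1, so their r is not evidence of a shared time course.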

How the data were processed

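What was deposited is a linear intensity for each probe set of an Affymetrix rat array. How the authors made them is not given in the sources used here. The 59 control probe sets were left out. Each array was divided by 0.911 to 1.13 to a common 75th percentile of 107, values under that percentile divided by 8 were set to this floor, and log2 was taken. Fold changes are on this floored scale. Probe sets with a mean intensity of at least the pooled median (31.9) entered limma 3.58.1 under R 4.3.3 (eBayes with intensity trend, 1 mean per group, 5 residual degrees of freedom, 4 with the block), with Benjamini-Hochberg adjustment over 4439 probe sets. The number of arrays limits precision.

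One 2 h label lacks a replicate number, and its array counts here as replicate 1. Control replicate 1 is labelled control without a time and was taken as 0 h. Deviations from group means of same-numbered arrays correlated in all 10 pairs of times, so the numbers were taken to pair the arrays. The correlation was weaker for pairs with 0 h (r = 0.110 to 0.417) than for the others (0.476 to 0.698). Pairing thus has the least support in comparisons with control, and the labels do not state it. Alternatives were no further scaling, quantile normalization, other floors, no filter, no trend, the block, leaving out each array, and averaging probe sets per gene. Symbols come from the platform's annotation, and all 16 matched RefSeq (GRCr8). Named were all members, the 3 probe sets with the smallest F-test p of each further list, and for the 2 members with the smallest F-test p the 5 most like genes. Members and lists were chosen with earlier results of these data known.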

Additional observations from a re-analysis of the deposited data

Results flagged for a closer look

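Ocln lay on opposite sides of both control arrays at different times. On AB016425_at its log2 change was 1.90 at 4 h and -1.30 at 24 h, on rc_AI638971_at 1.72 at 4 h and -0.76 at 24 h, and on rc_AI638971_g_at 2.03 at 4 h and -0.65 at 8 h. The difference between 24 and 4 h was not tested. That between 8 and 4 h was tested in the limma fit with the replicate block, where it was -2.64 on AB016425_at and -2.68 on rc_AI638971_g_at, both called. Ezr had a difference of -2.10 between 24 and 8 h, called in the same fit. Without the block these 3 differences had adjusted p of 0.356, 0.0965 and 0.0555.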

How the results depend on the processing

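Counts here are of junction probe sets called by limma. With the replicate block they were 1 at 2 h (0 without it), 3 at 4 h (2 without it), 2 from 4 to 8 h (0 without it) and 1 from 8 to 24 h (0 without it), and the block changed no other call of a junction probe set. Over all probe sets it called 54, 131, 119 and 51 at 2, 4 and 8 h against 0 h and from 8 to 24 h, where the fit without it called 30, 38, 34 and 10, and 143 against 44 at any time. The count from 8 to 24 h was also 1 with values as deposited, with quantile normalization, with the percentile divided by 4 as floor and with probe sets of a gene averaged. In that order, these settings called 10, 16, 17 and 11 over everything tested. From 4 to 8 h the junction count was 1 with no filter on intensity, where 13 were called over all probe sets. Averaging, chosen after the data were seen, gave 1 of 10 genes at 4 h and 1 at any time. Over all 3459 genes and unnamed probe sets it called 19 and 23. Leaving out 1 array lowered the junction count at 4 h in every such fit. In each of these fits the count over all probe sets also fell, at 4 h, at 8 h and at any time. It left a group with 1 array, assumed to vary like the others. Of 1764 single values under these alternatives none that was called changed direction, 82 that were not called changed sign, 19 lost a call and 10 gained one. All 18 alternatives kept Ezr positive at 4 and 8 h, and all kept the 3 Ocln probe sets positive at 4 h. Only other scaling, averaging for Ocln, and leaving out an array of a compared time altered these changes. The other alternatives returned the same change, so their agreement adds nothing. Dim probe sets of Cldn3 and Afdn lie near the floor, which limits what their changes can show. Control replicate 2 was also near the floor for Gja1 (15.5) and Pvr (14.3), with the same limit on their changes.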
